A study of Mus musculus with 2 samples.

Results

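The 10 genes described here are 6 inhibitors of cyclin-dependent kinases (Cdkn1a, Cdkn1b, Cdkn2a, Cdkn2b, Cdkn2c and Cdkn2d), the 3 pocket protein genes (Rb1, Rbl1 and Rbl2) and the homeobox gene Meis1, out of 55536 annotated genes. They were listed by name, each symbol matched 1 gene, and all of them are given whether or not they were detected. The study sequenced total RNA from heart tissue of male B6CASTF1/J mice aged 10 days, the hybrid offspring of a C57BL/6 laboratory strain and the wild-derived CAST strain, with no treatment or mutation named. Both libraries belong to this 1 group and are called replicate 1 and replicate 2 after their labels. Each was started from 300 ng of RNA, was depleted of ribosomal RNA, kept the strand and carried ERCC spike-in RNAs. The labels number the males separately but give both the same donor record, so the spread between the libraries may be partly technical. With 1 group there was no contrast between conditions to test. The values below are levels, the spread between the libraries, and the transcripts behind each level.

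Cyclin-dependent kinases drive the cell cycle by phosphorylating the pocket proteins, which in their unphosphorylated form hold back the E2F factors and the genes of DNA replication and mitosis. The CIP/KIP inhibitors, to which Cdkn1a and Cdkn1b belong, bind cyclin-kinase complexes of several kinds, whereas the INK4 inhibitors encoded by the Cdkn2 genes bind the kinases Cdk4 and Cdk6 that partner with D-type cyclins. In the mouse, heart muscle cells leave the cell cycle within the days after birth, and Meis1 is a transcription factor known for promoting that exit, with Cdkn1a and the Cdkn2a-Cdkn2b region among its described targets.

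Replicate 1 held 38851514 expected counts and replicate 2 held 37907585, so that 3 counts equal 0.0772 and 0.0791 CPM. Levels are in TPM (a transcript abundance scaled for gene length and depth), from gene tables made from alignments, called alignment-based below. The other deposited quantification, made directly from reads, is called read-based. Detection was set at 1 TPM, to be reached in each library. The difference between the libraries is a log2 ratio of replicate 2 over replicate 1, from counts scaled with edgeR's TMM factors. Its exact 95% Clopper-Pearson interval covers counting error only, and may be too narrow even for that, since reads are not independent molecules. Over the 13211 genes with a mean count of at least 50, the median ratio was 0.0062 and the 5th to 95th percentiles ran from -0.47 to 0.46. The biological coefficient of variation over 16166 genes was 0.147. All 8 heart muscle markers looked up were detected, where 52.4% of protein-coding genes passed the threshold. Their summed level was 35900 TPM in replicate 1 and 33560 TPM in replicate 2.

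Of the 10 genes, 8 were detected, where 22.9% of all annotated genes and 52.4% of protein-coding genes passed the same threshold. Cdkn1a had the highest level, followed by Cdkn1b. Below them came Meis1 and Cdkn2c, whose library values overlapped, and then Cdkn2d, Rbl2 and Rb1, where each neighbour overlapped the next. Rbl1 was lower than these in both libraries. Cdkn2a and Cdkn2b were the lowest, both under 1 TPM and overlapping each other. Set against the 11546 detected protein-coding genes, whose median was 10.4 TPM, Cdkn1a lay at the 91.4th percentile, Cdkn1b at the 71.9th and Rbl1 at the 14.8th, with the other 5 detected genes between the 40.5th and the 57.6th. In the read-based quantification the same 8 genes were detected. The order there differed at 1 place: Cdkn2d stood above Cdkn2c, and their library values overlapped.

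**Figure D1:**
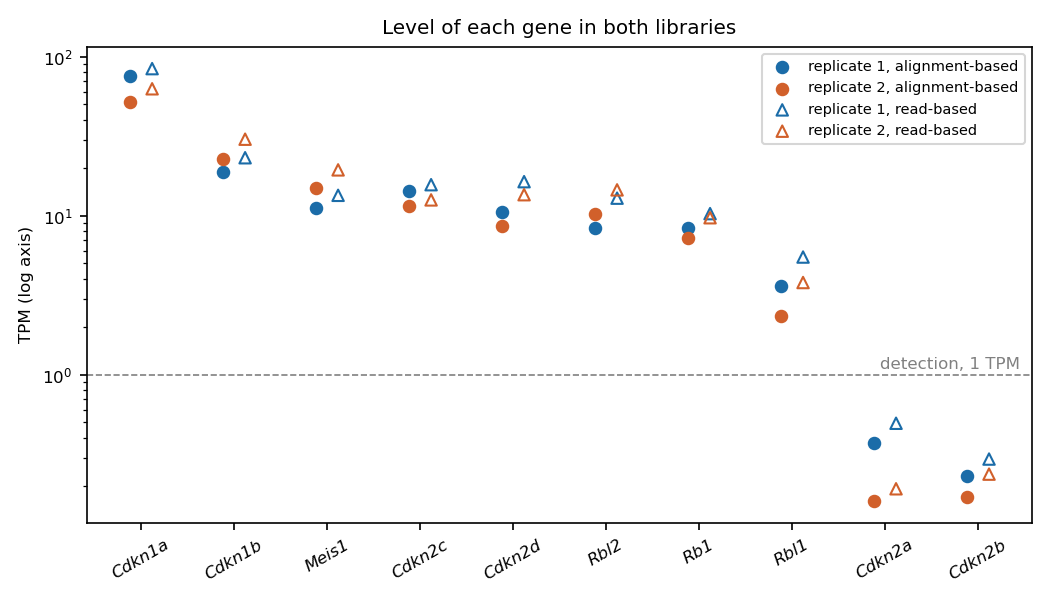
Level of each of the 10 genes in TPM on a log axis, with circles for the alignment-based and triangles for the read-based quantification, blue for replicate 1 and orange for replicate 2. Cdkn1a lies highest at 75.3 and 52.0 TPM (circles), and Cdkn2a and Cdkn2b lie below the dashed detection line at 1 TPM in both libraries.

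Cdkn1a encodes p21, the CIP/KIP inhibitor best known as a target of p53. It stood at 75.3 TPM in replicate 1 and 52.0 TPM in replicate 2, a mean of 63.7 TPM ± 16.5 (SD, n = 2), from 4103 and 2964 counts. Replicate 1 was the higher library, and both libraries lay above every value of the other 9 genes. The log2 ratio was -0.33, with an interval from -0.40 to -0.26, and 18.6% of the genes tested had a ratio at least as large in either direction. Cdkn1a supplied 63.0% of the summed TPM of the 6 inhibitors in replicate 1 and 54.7% in replicate 2.

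The annotation gives Cdkn1a 5 transcripts from 3 groups of start sites, within chr17:29090976-29100727 (mm10, plus strand). The main group holds Cdkn1a-201 and Cdkn1a-205, which start 12 bases apart. A distal group holds Cdkn1a-202 and the noncoding Cdkn1a-204, and starts 2793 bases upstream of Cdkn1a-201. The transcript Cdkn1a-203 starts within the intron. The 4 coding transcripts carry the same coding sequence of 159 codons, so the starts differ only in untranslated sequence. Promoter sequence before the distal and the main start is shown because the counts bear on which of them was used (RefSeq, GRCm38.p6, plus strand, 5′ to 3′). The distal window spans chr17:29090729-29090975 and the main window chr17:29093519-29093768. Capitals mark matches to the p53 decamer motif in the distal window and to the GC box GGGCGG in the main window.
Cdkn1a distal: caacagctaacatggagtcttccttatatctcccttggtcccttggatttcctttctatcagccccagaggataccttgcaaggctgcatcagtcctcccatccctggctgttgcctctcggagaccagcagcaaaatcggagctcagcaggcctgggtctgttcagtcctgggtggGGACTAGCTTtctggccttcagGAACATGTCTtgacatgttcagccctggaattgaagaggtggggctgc
Cdkn1a main: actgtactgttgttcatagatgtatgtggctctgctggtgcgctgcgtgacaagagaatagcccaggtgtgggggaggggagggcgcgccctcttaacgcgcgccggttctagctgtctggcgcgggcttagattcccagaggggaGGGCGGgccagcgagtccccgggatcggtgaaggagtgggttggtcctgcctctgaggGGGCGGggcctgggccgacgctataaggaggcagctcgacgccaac

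The main start held nearly all of the Cdkn1a signal. It had 98.2% of the gene's TPM in replicate 1 and 94.9% in replicate 2, and 96.3% and 94.0% in the read-based quantification. The distal start held 0.319% and 1.17%, from 6 and 16.05 counts, and in the read-based quantification it was listed at 0 counts in replicate 1 and 1 count in replicate 2. The internal start of Cdkn1a-203 held 1.43% and 3.98%. The window before the distal start had 2 matches to the p53 motif, at -73 and -51 from the RefSeq start, where 8.36% of 32851 promoter windows of the same 300 bases held at least 1 on either strand. Of the other members' windows, that of Cdkn2d held 1 such match. The distal window had 2 CG pairs. The window before the main start had 23 CG pairs, no match to the p53 motif and GC boxes at -104 and -46, a motif found in 35.7% of windows. The median window held 7 CG pairs.

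Within the main start the quantifications assigned the reads to different transcripts. The alignment-based table gave Cdkn1a-201 4027.78 and 2779.75 counts and Cdkn1a-205 34.17 and 97.08. The read-based table gave Cdkn1a-201 0.837 and 122.785 counts and Cdkn1a-205 4093.87 and 2749.84. The dominant transcript was thus a different one, at 94.7% of the gene's TPM for Cdkn1a-201 in the alignment-based table and 92.9% for Cdkn1a-205 in the read-based table. The first exon is 93 bases long in Cdkn1a-201 and 261 bases long in Cdkn1a-205, which runs 180 bases further into the intron, and the second exon of Cdkn1a-205 starts 6 bases later. The tables leave unresolved how much of each leader was made. The share of the main start was not affected, since both transcripts belong to it.

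**Figure D2:**
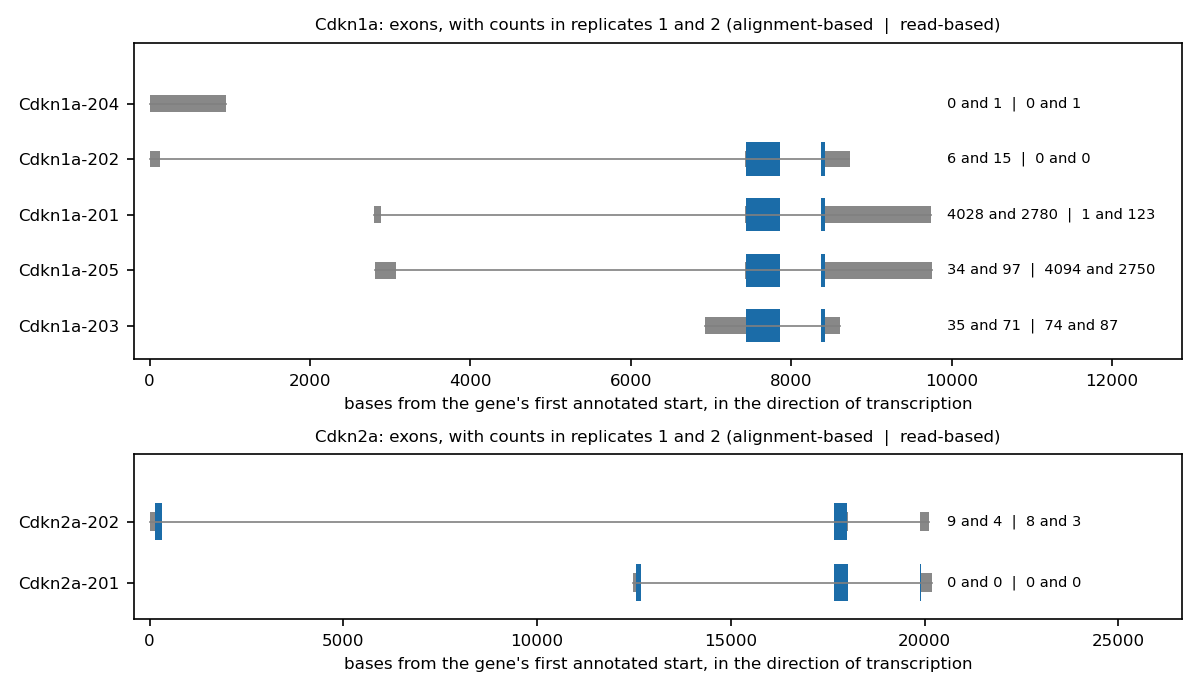
Exons of the annotated Cdkn1a and Cdkn2a transcripts by distance in bases from the gene's first start, with coding sequence in tall blue boxes and the counts of replicates 1 and 2 beside each transcript for the alignment-based and the read-based quantification. The Cdkn1a counts move between Cdkn1a-201 and Cdkn1a-205 while staying at the main start, and the few Cdkn2a counts fall on Cdkn2a-202.

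Cdkn1b encodes p27, the CIP/KIP inhibitor whose level in cells is set largely by degradation. Its level was 18.8 TPM in replicate 1 and 22.8 TPM in replicate 2, a mean of 20.8 TPM ± 2.80 (SD, n = 2), from 1603 and 2054 counts. Here replicate 2 was the higher library, the opposite of Cdkn1a. The log2 ratio was 0.50 (interval 0.40 to 0.59), and 8.80% of the genes tested had a ratio at least as large. On the log2 scale Cdkn1a exceeded Cdkn1b by 2.00 in replicate 1 and by 1.19 in replicate 2, and the read-based quantification gave 1.86 and 1.05. Of the summed TPM of the 6 inhibitors Cdkn1b made up 15.7% and 24.0%.

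All 3 transcripts of Cdkn1b (chr6:134920401-134925513, plus strand) encode the same 197 codons. Cdkn1b-201 made up 75.8% of the gene's TPM in replicate 1 and 75.9% in replicate 2, and the longer Cdkn1b-202 made up 24.2% and 24.1%. Its read-based share was 26.5% ± 0.66 (SD, n = 2), so the split moved by under 3 percentage points between libraries and quantifications. Cdkn1b-203 was listed at 0 in both. The promoter window of Cdkn1b held CCAAT boxes at -161 and -35, and 37.4% of all windows held that motif on either strand.

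The remaining CIP/KIP gene, Cdkn1c, encodes p57, an imprinted growth inhibitor. It stood at 20.0 TPM in replicate 1 and 15.2 TPM in replicate 2, overlapping the values of Cdkn1b, with a log2 ratio of -0.27 (interval -0.41 to -0.12).

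Among the INK4 genes, Cdkn2c and Cdkn2d carried nearly all of the signal. Cdkn2c, which encodes p18, stood at 14.2 TPM in replicate 1 and 11.4 TPM in replicate 2, a mean of 12.8 TPM ± 1.98 (SD, n = 2). Its counts were 765 and 661. Cdkn2d, which encodes the INK4 protein p19, stood at 10.6 TPM and 8.56 TPM, a mean of 9.57 TPM ± 1.42 (SD, n = 2). Its counts were 420 and 363. Both were higher in replicate 1 on the TPM scale, but the log2 ratio of scaled counts was -0.069 for each, with intervals that include 0 (-0.22 to 0.083 and -0.28 to 0.14). Among the genes tested, 72.8% had a ratio at least as large as that of Cdkn2c and 73.0% as that of Cdkn2d.

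The ratio of Cdkn2c to Cdkn2d was steady between libraries and differed between quantifications. On the log2 scale it was 0.42 and 0.41 in the alignment-based table and -0.063 and -0.11 in the read-based table. Cdkn2c (chr4:109660876-109667189, minus strand) has 2 transcripts with the same 168 codons. The longer Cdkn2c-202, from the upstream start, held 56.8% and 58.9% of the gene's TPM, and 70.8% and 84.8% in the read-based table. The RefSeq start nearer Cdkn2c-202 lies 433 bases downstream of that transcript's annotated start. Its window therefore lies within the first exon of Cdkn2c-202, and sequence upstream of that transcript was not searched. This window held GC boxes at -95, -51 and -40 from the RefSeq start. The window of Cdkn2c-201 held no GC box. In the window of Cdkn2c-201 there was a match to TGACAG, the core bound by Meis proteins, at -120, a motif present in 19.2% of all windows. For Cdkn2d (chr9:21288410-21291407, minus strand) the coding transcript Cdkn2d-203 held 94.1% and 100% in the alignment-based table, and 77.8% and 88.3% in the read-based table. There Cdkn2d-202 took 20.4% and 9.98%, while the alignment-based table listed it at 0.

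Cdkn2a and Cdkn2b lie next to each other on the minus strand, at chr4:89274471-89294653 and chr4:89306299-89311039, and are known for rising with age and oncogenic stress. Cdkn2a had 9 counts in replicate 1 and 4 in replicate 2, which is 0.37 and 0.16 TPM. Cdkn2b, which encodes p15, had 9 and 7 counts, or 0.23 and 0.17 TPM. The exact Poisson 95% interval for the 9 counts of Cdkn2a runs from 4.12 to 17.1, and for its 4 counts from 1.09 to 10.2. The log2 ratio of Cdkn2a was -0.94, with an interval from -3.18 to 0.81. That interval includes 0, so no difference between the libraries was detectable at this depth for Cdkn2a. The same held for Cdkn2b, with a log2 ratio of -0.20 (interval -1.88 to 1.37). Its Poisson interval for 7 counts runs from 2.81 to 14.4.

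Cdkn2a encodes unrelated proteins from overlapping reading frames: p16Ink4a, an INK4 inhibitor, and p19Arf, which stabilises p53 by binding Mdm2. They begin at separate first exons 12461 bases apart and share the second exon. The transcript with the Arf first exon, Cdkn2a-202 (169 codons), had 8.93 counts in replicate 1 and 4 in replicate 2, and 8 and 3 in the read-based table. The transcript with the Ink4a first exon, Cdkn2a-201 (168 codons), had 0.07 and 0 counts, and 0 and 0 in the read-based table. A count of 0 allows up to 3 counts, which for Cdkn2a-201 is 0.132 TPM in replicate 1 and 0.124 TPM in replicate 2 (alignment-based). The same floor for Cdkn2a-202 was 0.125 and 0.118 TPM, so the Arf transcript lay above it in both libraries, although its 3 read-based counts in replicate 2 were only at the floor. The few counts of the gene were thus assigned to Arf, while Ink4a was not detectable at this depth.

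The upstream sequences are shown because the transcripts begin at separate starts (RefSeq, GRCm38.p6, minus strand, 5′ to 3′). Any relation between their composition and the few counts was not tested. The Arf window spans chr4:89294654-89294869 and the Ink4a window chr4:89282193-89282442. Capitals mark, in order, a TGACAG match on the opposite strand, an E2F motif and a GC box.
Cdkn2a Arf start: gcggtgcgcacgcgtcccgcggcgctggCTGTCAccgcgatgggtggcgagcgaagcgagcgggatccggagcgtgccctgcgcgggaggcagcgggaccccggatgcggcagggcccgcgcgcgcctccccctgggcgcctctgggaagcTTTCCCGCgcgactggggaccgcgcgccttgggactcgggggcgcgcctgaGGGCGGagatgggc
Cdkn2a Ink4a start: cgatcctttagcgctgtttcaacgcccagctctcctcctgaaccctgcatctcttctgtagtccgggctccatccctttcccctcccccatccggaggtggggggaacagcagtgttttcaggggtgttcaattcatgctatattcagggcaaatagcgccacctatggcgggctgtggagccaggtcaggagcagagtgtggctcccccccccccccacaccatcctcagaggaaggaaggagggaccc

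The Arf window of 300 bases had a GC content of 77.0% and 45 CG pairs, and the Ink4a window 60.3% and 12 CG pairs, against a median of 52.7% over all windows. The E2F motif was searched as TTTCCCGC, TTTCGCGC, TTTGCCGC and TTTGGCGC on both strands, and 2.26% of the windows held 1 or more. The Arf window held it at -99 from the RefSeq start, and the printed part of the Ink4a window held none of the motifs searched. These matches describe letters only, and no binding was measured here.

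Polycomb proteins are known to silence the Cdkn2a-Cdkn2b region. The list of 10 held Polycomb genes and also Kdm6b, an eraser of the Polycomb mark. All 10 were detected, where 52.4% of protein-coding genes passed the same threshold. Their median was 10.9 TPM in replicate 1 and 11.4 TPM in replicate 2. The highest were Bmi1 (27.8 and 22.3 TPM), Kdm6b (20.2 and 20.5 TPM) and Suz12 (15.7 and 13.2 TPM). With TMM scaling the ratio was above 0 for 9 of the 10, and 4 intervals lay above 0, where 22.3% of the genes tested did so. Both counts include Kdm6b, at 0.22 (interval 0.16 to 0.29). This direction depended on the scaling: 5 of the 10 were higher in replicate 2 with library totals and 4 of the 10 by TPM. Ezh1 had the largest ratio, at 0.40. The median ratio of the list was 0.12, against 0.0062 over all genes tested, and it was 0.018 with library totals and -0.076 by TPM. Whether these genes act on the levels of Cdkn2a and Cdkn2b in this tissue was not tested.

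In alignment-based TPM, each pocket protein gene differed more between the libraries than their sum did. Rb1, which encodes the retinoblastoma protein, stood at 8.37 TPM in replicate 1 and 7.25 TPM in replicate 2, a mean of 7.81 TPM ± 0.792 (SD, n = 2), from 927 and 862 counts. Rbl1, which encodes p107, the family member most tied to proliferating cells, stood at 3.63 and 2.34 TPM, a mean of 2.99 TPM ± 0.912 (SD, n = 2), from 437 and 337 counts. Rbl2, which encodes p130, the member most tied to resting cells, stood at 8.34 and 10.3 TPM, a mean of 9.30 TPM ± 1.35 (SD, n = 2), from 1030 and 1272 counts. Rbl1 was thus the lowest of the family in both libraries. Summed, the 3 genes gave 20.3 TPM in replicate 1 and 19.8 TPM in replicate 2, an SD of 0.354 TPM (n = 2). This closeness belongs to the TPM scale, on which the median ratio of all genes shifted by -0.22. The sum was not compared with TMM scaling.

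Within that sum the shares moved. Rbl2 made up 41.0% in replicate 1 and 51.7% in replicate 2. Rbl1 made up 17.8% and 11.8%, and Rb1 41.2% and 36.5%. On the log2 scale Rbl2 exceeded Rbl1 by 1.18 in replicate 1 and by 2.09 in replicate 2, and by 1.22 and 1.91 in the read-based table. Rbl2 and Rb1 were level in replicate 1, at -0.005, and Rbl2 was higher by 0.49 in replicate 2.

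The log2 ratio between libraries was 0.45 for Rbl2 (interval 0.33 to 0.57) and -0.23 for Rbl1 (interval -0.44 to -0.025). A ratio at least as large was found in 10.9% and 30.1% of the genes tested. As a ratio of TPM Rbl1 came to -0.61, which is past 1.5-fold. For Rb1 the ratio was 0.037 (interval -0.099 to 0.17). Its sign depended on the scaling: it was -0.070 with library totals, -0.034 with ERCC spike-ins, -0.21 as a ratio of TPM and -0.088 as a ratio of FPKM. Library totals shifted the median over all genes by -0.11, and the ratio of TPM shifted it by -0.22, so relative to all genes Rb1 stayed near 0.

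For each pocket protein 1 coding transcript held the largest share of the signal. Rb1-201, the only coding transcript of Rb1, with 921 codons, held 78.5% and 79.3% of the gene's TPM, and 77.1% and 80.1% in the read-based table. Rbl1-201 (1063 codons) held 72.5% and 88.4%, but 52.2% and 64.0% in the read-based table, where the retained-intron transcript Rbl1-203 held 27.8% and 19.4%. The retained-intron transcript Rbl1-202 had 55.48 counts in replicate 1 and 6.47 in replicate 2, and 41.8549 and 8.5828 in the read-based table. Rbl1-201 itself had 378.86 and 315.03 counts, so a part of the Rbl1 difference lay in a transcript annotated as noncoding. Rbl2-201 (1135 codons) held 81.6% and 72.8%, and 55.9% and 61.4% in the read-based table.

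Rb1 (chr14:73183673-73325822, minus strand) overlaps the opposite-strand genes Rcbtb2 (937.69 and 884 counts) and Lpar6 (319 and 221 counts), and Rbl2 (chr8:91070057-91123844, plus strand) overlaps the opposite-strand gene Aktip (820 and 741 counts). Whether the counting used the strand was not stated, so some reads in the overlaps could belong to the neighbour. Rbl1 lies at chr2:157145893-157204534 on the minus strand, and its promoter window held the E2F motif as TTTCGCGC at -18. That of Rbl2 held none.

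**Figure D3:**
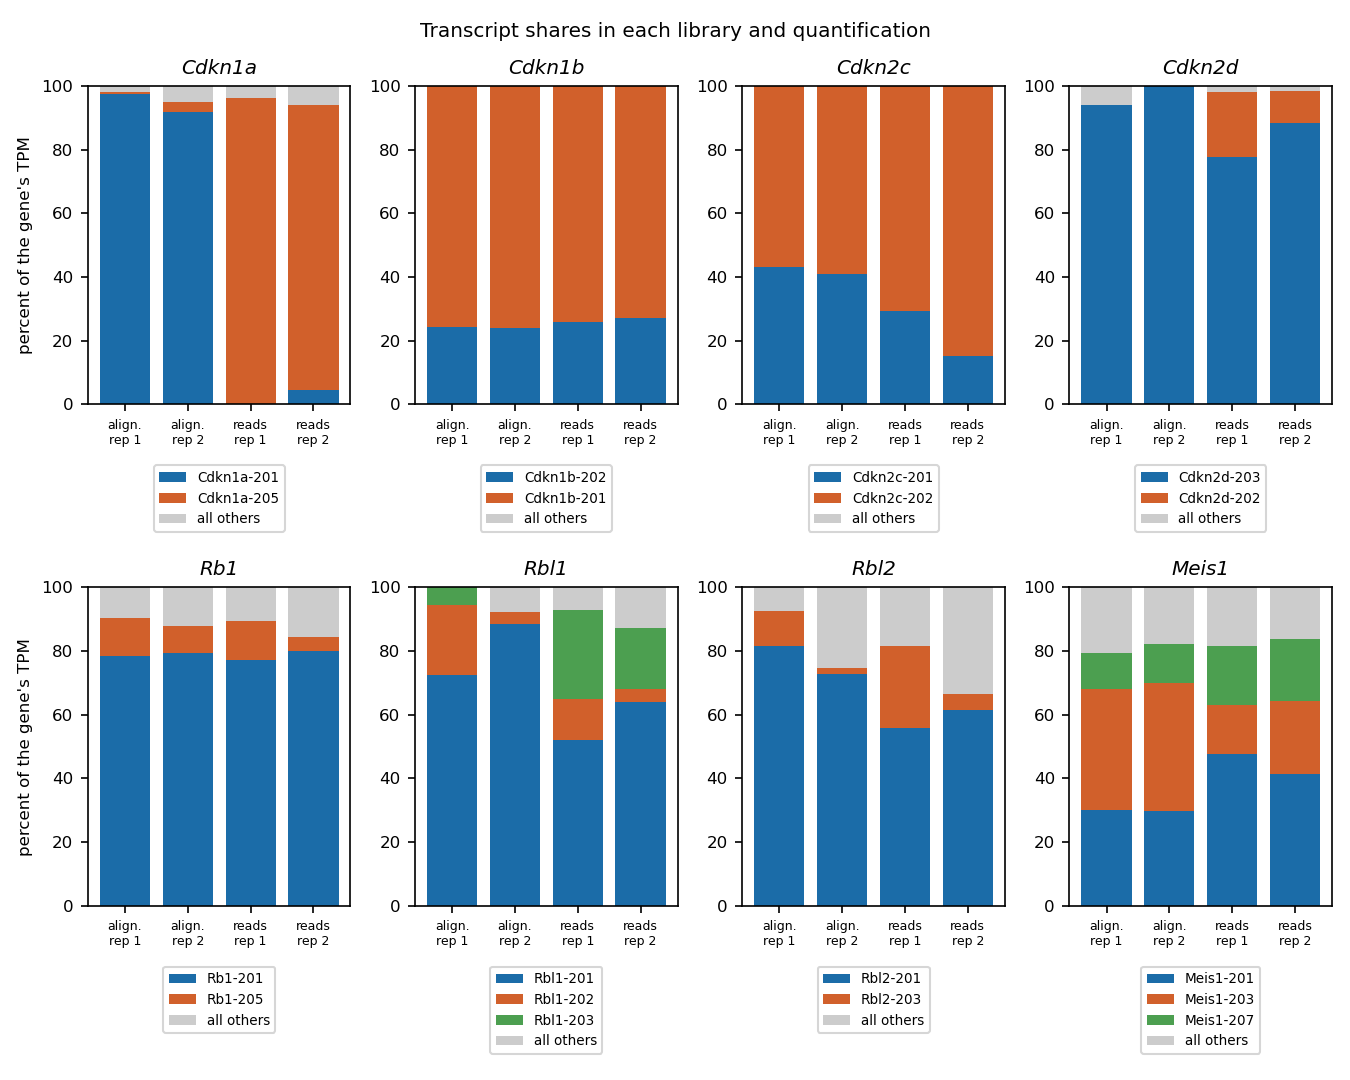
Share of each gene's TPM by transcript, in percent, for the alignment-based (align.) and read-based (reads) quantification of replicates 1 and 2. Transcripts averaging at least 10% in either quantification are coloured and the rest are grey. The colour changes between quantifications for Cdkn1a, and for Meis1 the largest share passes from Meis1-203 to Meis1-201.

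Meis1 encodes a homeobox factor of the TALE class, which binds DNA with Pbx and Hox partners. It stood at 11.2 TPM in replicate 1 and 15.0 TPM in replicate 2, a mean of 13.1 TPM ± 2.65 (SD, n = 2), from 882.62 and 1243.19 counts. Replicate 2 was the higher library. The read-based table gave 13.4 and 19.4 TPM. The log2 ratio was 0.63 (interval 0.51 to 0.76), a fold of 1.55, and 5.40% of the genes tested had a ratio at least as large.

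Transcripts annotated as noncoding held much of the Meis1 signal. The annotation gives Meis1 (chr11:18879817-19018985, minus strand) 9 transcripts, of which 4 are coding. Coding transcripts made up 40.3% of the gene's TPM in replicate 1 and 37.7% in replicate 2, and 54.8% and 48.0% in the read-based table. The alignment-based table put the processed transcript Meis1-203 first, at 37.8% and 40.1%, with the coding Meis1-201 (390 codons) at 30.2% and 29.8%. The read-based table put Meis1-201 first, at 47.8% and 41.4%, with Meis1-203 at 15.4% and 22.9%. Meis1-207, annotated for nonsense-mediated decay, held 11.5% and 12.3%, and 18.5% and 19.4% in the read-based table.

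The counts of Meis1-201 were 317.82 in replicate 1 and 443.00 in replicate 2, and those of Meis1-203 were 245.14 and 367.71. Both were higher in replicate 2, as they were in the read-based table (532.163 and 644.374 for Meis1-201, 100.456 and 208.677 for Meis1-203). Of the 31-base words in the Meis1 transcripts, 9.51% also occur in another annotated gene, 1000 of the 1018 such words in Gm37818, a same-strand model within Meis1 that had 12.38 and 33.81 counts. The transcript shares of Meis1 are therefore uncertain. The gene's mean level also differed between the tables by more than its SD, at 13.1 TPM in the alignment-based and 16.4 TPM in the read-based table. That was not particular to Meis1, since 7 of the 10 genes differed between the tables by more than their SD.

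Of the 9 TALE and Hox genes listed as partners or relatives of Meis1, 7 were detected, where 52.4% of protein-coding genes passed the same threshold. Pbx2, a DNA-binding partner, stood at 10.9 TPM in replicate 1 and 11.2 TPM in replicate 2, and the Meis1 relative Meis2 at 9.34 and 9.52 TPM. Meis1 lay above Meis2 in both libraries. Hoxb13, described elsewhere as a partner of Meis1 in heart muscle cells after birth, had 0 counts in both libraries, which allows up to 3 counts in each. Pbx4 had 7 and 5 counts. The median ratio of the 7 detected genes was 0.048, or -0.058 with library totals and -0.26 by TPM, and Meis2 had the largest, at 0.33 (interval 0.19 to 0.48). Meis1's own interval lay above that of Meis2.

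Across the 10 genes, 0 exceeded a 2-fold difference between the libraries at a mean count of at least 50, where 1.79% of the genes tested did. Meis1 was the 1 gene over 1.5-fold, where 6.27% of the genes tested were. It no longer passed 1.5-fold under 5 of the 7 alternatives: library totals (0.53), ERCC spike-ins (0.56), the read-based table (0.56), a ratio of TPM (0.41) and a ratio of FPKM (0.53). The interval lay below 0 for 2 genes, Cdkn1a and Rbl1, where 20.6% of the genes tested did so. It lay above 0 for 3 genes, Cdkn1b, Rbl2 and Meis1, where 22.3% did. The directions of these 5 genes were the same under all 7 alternatives. The other scalings shift the median of all genes downward, so they checked the direction of the 3 higher genes but hardly that of the 2 lower ones. The intervals of the 5 genes reflect counting error alone, and 18.6% to 30.1% of all genes differed by as much as Cdkn1a and Rbl1.

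**Figure D4:**
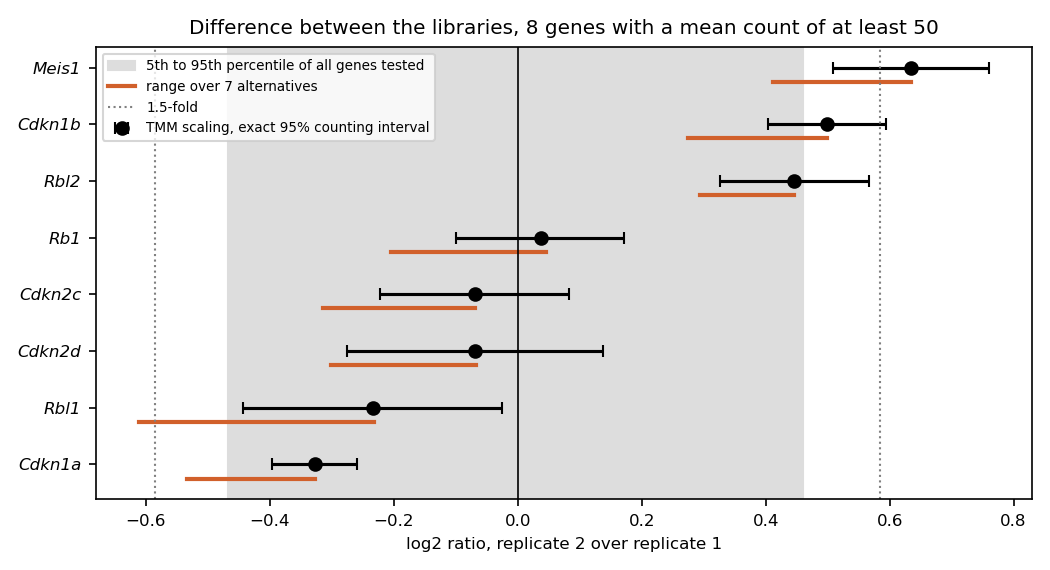
Log2 ratio of replicate 2 over replicate 1 for the 8 genes with a mean count of at least 50, with exact 95% counting intervals in black and the range over 7 alternatives in orange below each point. The grey band is the 5th to 95th percentile of all genes tested (-0.47 to 0.46). Meis1 and Cdkn1b have points outside it, and Rb1, Cdkn2c and Cdkn2d have intervals that include 0.

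The genes on which the inhibitors act were all detected, where 52.4% of protein-coding genes passed the same threshold. The D-type cyclin Ccnd2 was the highest of the 10 cyclins and kinases listed, at 113 TPM in replicate 1 and 97.6 TPM in replicate 2, above Cdkn1a in both. The INK4 target Cdk4 stood at 64.4 and 50.8 TPM and the cyclin Ccnd3 at 49.5 and 43.5 TPM. The 4 INK4 genes summed to 25.4 TPM in replicate 1 and 20.3 TPM in replicate 2, below Cdk4 alone. These are RNA levels of whole tissue, and amounts of protein were not measured. The median ratio of the 10 genes was -0.007, with 3 intervals below 0 and 1 above, against 20.6% and 22.3% of the genes tested. By TPM all 10 were lower in replicate 2, with a median of -0.20, where the median of all genes shifted by -0.22. The largest ratio was that of Cdk1, the mitotic kinase, at 17.1 and 12.2 TPM (log2 ratio -0.38, interval -0.57 to -0.20).

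The E2F and DP factors, only some of which are bound by the pocket proteins, were likewise all detected. That is 10 of 10, against 52.4% of protein-coding genes. Tfdp2, a DP subunit, stood at 23.6 and 29.6 TPM, Tfdp1 at 22.8 and 18.2 TPM, and E2f6, an E2F repressor outside pocket protein control, at 22.0 and 17.7 TPM. Tfdp2 had the largest ratio, at 0.65 (interval 0.58 to 0.73), in the direction of Rbl2. The ratio was below 0 for 8 of the 10 and the median was -0.19. Of the intervals 4 lay below 0 and 1 above, against 20.6% and 22.3% of the genes tested. The MuvB core forms the DREAM complex with Rbl2 or Rbl1. Among the 6 genes of the MuvB core and B-Myb, Rbbp4 was the highest at 56.1 and 49.2 TPM. Lin37 followed at 9.84 and 6.97 TPM, and Lin54 at 5.0 and 4.2 TPM. The median ratio of the 6 was 0.029, with 3 below 0 and 3 above. Of the intervals 1 lay below 0 and 1 above, against 20.6% and 22.3% of the genes tested. Mybl2, which encodes B-Myb, the activator that takes the pocket protein's place on the MuvB core, had the interval below 0. It stood at 2.27 and 1.49 TPM (log2 ratio -0.68, interval -1.04 to -0.33).

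The replication and mitosis genes that E2F and DREAM control had ratios below 0 for 15 of 15, where the median of all genes tested was 0.0062. The same count was found with library totals, ERCC spike-ins and TPM. These scalings shift the median of all genes by -0.11, -0.071 and -0.22, so they were no independent check of a direction below 0. Of the 15 intervals 8 lay below 0, where 20.6% of the genes tested did so, and the other 7 included 0. Their median level was 10.0 TPM in replicate 1 and 7.26 TPM in replicate 2, and their median ratio -0.19. Pcna, the replication clamp, stood at 32.6 and 25.3 TPM, Top2a, the mitotic topoisomerase, at 23.8 and 16.2 TPM, and Rrm2, a subunit of ribonucleotide reductase, at 18.5 and 15.3 TPM. Plk1, a mitotic kinase, had the largest ratio, at -0.43 (interval -0.68 to -0.18). Replicate 2, with the lower values of these genes, was the library with less Rbl1 and more Rbl2, Cdkn1b and Meis1, and also with less Cdkn1a. These are 2 libraries, and no relation between the genes can be tested over them. In whole tissue, fewer cells of a type and less RNA per cell cannot be told apart.

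Of 14 regulators and targets of p53, 13 were detected, where 52.4% of protein-coding genes passed the same threshold. Ccng1 was the highest at 96.7 TPM in replicate 1 and 79.9 TPM in replicate 2, then Sesn1 at 45.8 and 59.4 TPM and Plk2 at 29.8 and 19.8 TPM. Cdkn1a lay between Ccng1 and Sesn1 in replicate 1 and below both in replicate 2. The list had no shared direction: 6 intervals lay below 0 and 5 above, against 20.6% and 22.3% of the genes tested, and the median ratio was -0.051. Plk2 had a ratio close to that of Cdkn1a, at -0.35, whereas Sesn1 had 0.59. Btg2 had the largest, at 13.7 and 26.5 TPM (1.17, interval 1.07 to 1.28), and is also an immediate early gene. Gdf15, at 0.36 and 0.34 TPM, was not detected.

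The 8 genes of p27 turnover and FOXO control, which act on Cdkn1b, were all detected, against 52.4% of protein-coding genes. Skp1a, a subunit of the SCF ubiquitin ligase, stood at 99.9 and 87.1 TPM, Foxo3, a factor known to activate Cdkn1b, at 28.5 and 36.1 TPM, and the ligase scaffold Cul1 at 33.5 and 26.7 TPM. Foxo3 had the largest ratio, at 0.57 (interval 0.52 to 0.62), and Cdkn1b had 0.50. The other FOXO genes listed had intervals on both sides of 0, and any relation to Cdkn1b was not tested. The median of the list was -0.093, with 2 of 8 intervals below 0 and 2 above, near the 20.6% and 22.3% of the genes tested.

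**Figure D5:**
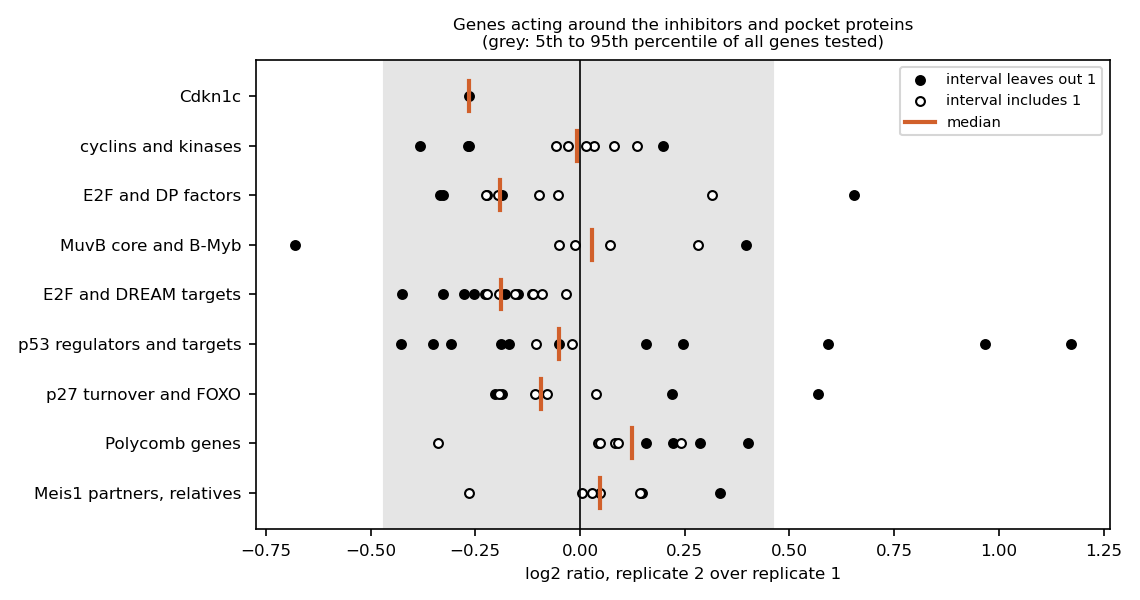
Log2 ratio of replicate 2 over replicate 1 for each listed gene with a mean count of at least 50, by list, filled where the counting interval leaves out equal levels, with list medians in orange and the 5th to 95th percentile of all genes in grey. All 15 E2F and DREAM targets lie left of 0, and the p53 list spreads to both sides.

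The libraries also differed in markers of other cells. The counts here cover markers with a mean count of at least 50, and the summed levels cover each whole list. Heart muscle markers had a median ratio of 0.18, with 7 of 8 higher in replicate 2, but by TPM all 8 were lower there and the summed level was 35900 and 33560 TPM. Fibroblast markers had a median of -0.42, with 8 of 9 lower and a summed level of 1985 and 1253 TPM, and macrophage markers -0.47, with 8 of 8 lower (69.4 and 43.1 TPM). Endothelial markers had -0.048, with 7 of 8 lower (552 and 448 TPM), and mural markers -0.031, with 4 of 7 lower (607 and 465.5 TPM). Mesothelial markers had -0.90, with 5 of 6 lower (37.55 and 20.1 TPM). Atrial markers had -1.96, with 6 of 7 lower (1545 and 292 TPM) and Bmp10 at 44.1 and 0.33 TPM. Adipocyte markers had -4.95, with 5 of 5 lower (420 and 31.2 TPM), and Schwann cell markers -2.25, with 4 of 4 lower (18.6 and 3.19 TPM). Immediate early genes were higher in replicate 2 for 9 of 9, or 6 of 9 by TPM, with a median of 0.51 (79.2 and 143 TPM). Lymphocyte markers were near the detection limit at 5.71 and 4.73 TPM summed, and no marker was at 0 in both libraries. The part of these shifts in the ratios of the 10 genes was not tested.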

How the data were processed

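The build was mm10 and the annotation GENCODE M21, per the file headers. The columns have the layout of RSEM and of kallisto output, while the programs and their versions are not given in the sources used here. Deposited tables hold expected counts (estimated counts in the read-based table), TPM and FPKM. The reference is of the C57BL/6 strain, so reads of differing CAST alleles may be lost, and strand use in counting is not stated. Rows that name no gene held 3.89 and 3 counts and were left out.

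From these files, expected counts were rounded and scaled with TMM (edgeR 4.0.16, R 4.3.3), 0.5 was added, and ratios were taken with Python 3.11.15, scipy 1.17.1 and pandas 2.3.3. DESeq2 1.42.0 size factors, library totals, ERCC counts, ratios of TPM and of FPKM (pseudocount 0.1), 2 added counts and the read-based table were alternatives. With 2 libraries of 1 group, no test was made. The ratio and its scaling were tested on simulated data. Symbols, coordinates and transcript types came from GENCODE M21, and promoter windows from RefSeq (GRCm38.p6, 9 of 10 genes matched, 12 windows). Transcripts were grouped by starts within 500 bases, a choice made after seeing the data, as were the list directions under other scalings. Motifs were searched on both strands.

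The members and lists were chosen with earlier results of these data known. Named were the 10 genes and, of each partner list, the 3 with the highest mean TPM, any under 1 TPM in both libraries and the largest ratio at a mean count of at least 50; marker lists are given as medians, with Bmp10 named for its ratio. 1 gene that this rule names is not reported here.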

Additional observations from a re-analysis of the deposited data

How the results depend on the processing

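The count of genes over 1.5-fold was 1 and became 0 with library totals, with ERCC spike-in scaling and with the read-based quantification. The biological coefficient of variation was 0.147, and 0.133 with at least 50 counts or 0.145 with at least 1 count in both libraries. The count of detected genes was 8 and stayed at 8 without either replicate. Of the 164 values recomputed in all, 108 were classed as unchanged, 56 as moved and 0 reversed a called direction. Levels were judged against the SD of the 2 libraries, and the members' ratios against their counting intervals. A level without 1 of the 2 libraries cannot move by more than that SD, so those values had to be classed as unchanged. TPM rescaled over nuclear protein-coding genes multiplied every level by 2.33 in replicate 1 and 2.67 in replicate 2, so levels depend on that denominator while their order within a library does not. No paired analysis was possible because there is 1 group. With 2 libraries the SD is itself uncertain, and no ratio has a replicate.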
